A study of Homo sapiens with 8 samples.

Results

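Of the 4 RNA-seq libraries made from SW1990 cells, 2 have names that begin with SP and 2 do not, and the SP-prefixed libraries were compared here with the unprefixed ones. The members were chosen by the prefix of the library name alone, and each prefix holds 1 control library and 1 library labelled PAF1 CRISPR knockdown. SW1990 is an established cell line of pancreatic ductal cancer, and the sample titles place every library in the side population. The titles also abbreviate side population as SP. Whether the prefix of the library names means the same is not stated in the sources used here, so it is used only as a name.

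Of the SP-prefixed libraries, 1 is from cells labelled PAF1 CRISPR knockdown (called knockdown-labelled below) and 1 from control cells, and the same holds for the unprefixed libraries. The word CRISPR stands in 3 of the 4 library names and is missing from that of the unprefixed control, and both SP-prefixed names carry the letters P3, which are not explained. The labels mention no separate cultures, and the p-values therefore measure no more than how far these libraries scatter, for technical or other causes. PAF1 mRNA stood at 44.4 CPM (counts scaled by TMM to the size of the library) in the SP-prefixed and 41.7 CPM in the unprefixed knockdown-labelled library, and at 43.9 CPM in the SP-prefixed and 55.2 CPM in the unprefixed control. Within the SP-prefixed libraries PAF1 was thus not lower under the knockdown label, and every statement on knockdown-labelled libraries rests on their labels.

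The side population is the fraction of a cell preparation that stays dim after loading with a DNA-binding dye, because transporters of the ABC family, chiefly ABCG2, pump the dye out. It is used to enrich for drug-resistant and stem-like tumour cells. Cells of pancreatic ductal cancer also make large secreted and membrane mucins, build membranes with the cholesterol and fatty acid pathways controlled by the SREBP transcription factors, and answer amino acid shortage and endoplasmic reticulum stress through the transcription factor ATF4. These programmes give the order of the results.

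The libraries held 19157966 and 20334075 counts with the prefix and 17234973 and 22348416 without it, knockdown-labelled library first in each pair. Lanes of a library were summed, since they differed by little more than sampling noise (1.01 to 1.03 chi-square units per degree of freedom). The SP-prefixed control stood apart. The chi-square per degree of freedom between it and the other libraries was 37.8 to 41.2, against 10.1 to 27.8 among the other 3. Results are therefore given for each pair, and the effect of leaving out that library is stated where it matters. All 10 markers of pancreatic ductal epithelium were detected, with a summed level of 5800 and 6012 CPM in the SP-prefixed and 6176 and 7291 CPM in the unprefixed libraries. The summed level of 11 leukocyte markers was at most 2.87 CPM in any library, with 4 of the 11 at 0 throughout. Of 10 fibroblast markers, 4 were at 0 in all libraries and 1 was over 5 CPM.

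Genes that differed between SP-prefixed and unprefixed libraries beyond the group effect were few, and several belonged to the same families. The mucins MUC16, MUC4, MUC2 and MUC5AC were higher with the prefix. So were INSIG1 of the cholesterol pathway, PHGDH of serine synthesis, and several very long genes such as FRAS1, UBR4 and DYNC1H1. The carcinoembryonic antigen genes CEACAM5 and CEACAM6, the squamous differentiation genes IVL and SPRR3 and the keratin KRT13 were lower. The squamous list as a whole was not, with 8 of 16 measured members positive and 8 negative. Counts were tested for 16417 genes with edgeR's quasi-likelihood test, with a term for the group, and 30 genes (0.183% of those tested) passed at a Benjamini-Hochberg adjusted p of 0.05. Of these, 19 (0.116%) were higher and 11 (0.067%) lower in the SP-prefixed libraries. The plot of levels in each library shows 29 of them. In bulk RNA, fewer cells of a type and less RNA per cell cannot be told apart, here and in all results that follow.

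**Figure D1:**
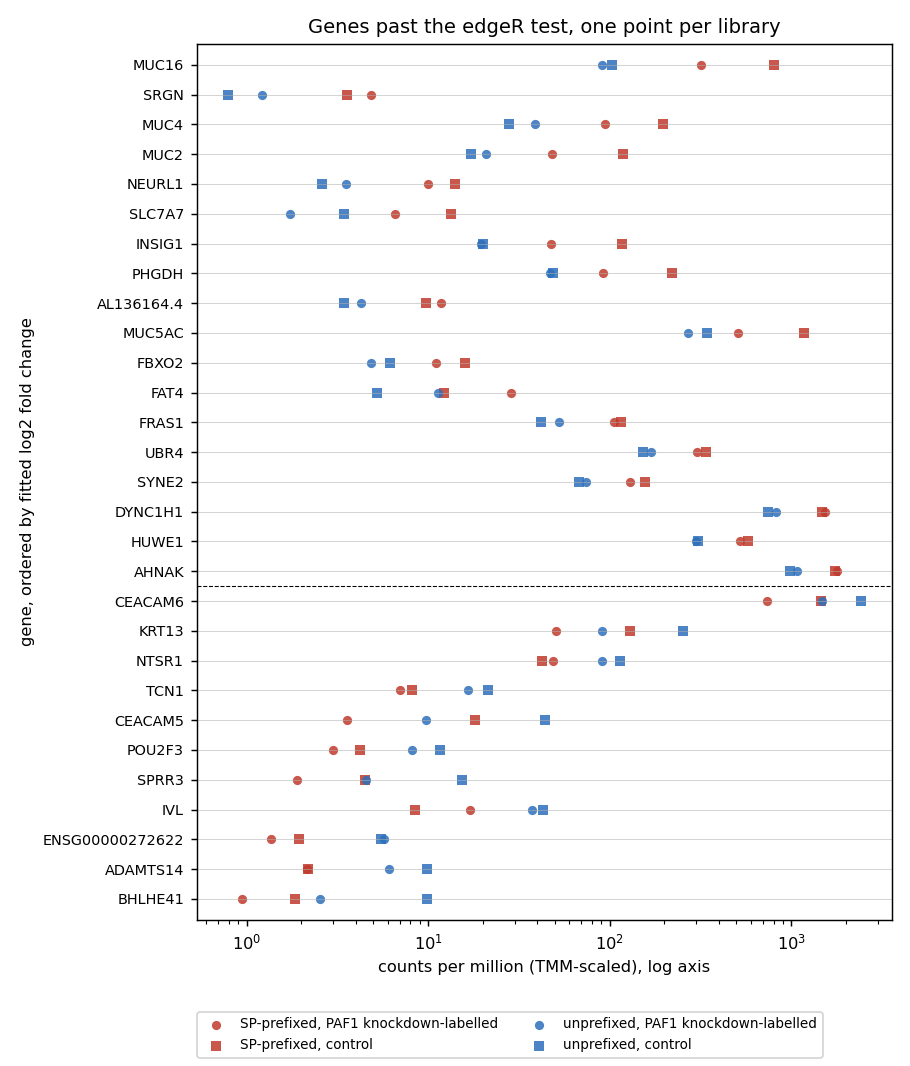
Levels of 29 of the 30 genes past the edgeR test. Each row is a gene, the horizontal axis gives TMM-scaled CPM on a log scale, and each point is 1 library (red SP-prefixed, blue unprefixed, circles knockdown-labelled, squares control). Above the dashed line all 18 genes shown have both red points to the right of both blue points (17.0% of all genes tested). Below it 9 of 11 genes have both red points to the left (16.6%). The genes were chosen by this same comparison, so the separation adds no support to it.

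The threshold lay close to all of these calls. Their edgeR adjusted p-values ran from 0.0313 (MUC16) to 0.0469 (AHNAK), and the fit had 1 residual degree of freedom before moderation. With RLE in place of TMM scaling no gene passed (edgeR, lowest adjusted p = 0.0557), although 1694 genes had an unadjusted p under 0.05, close to the 1716 of TMM (10.5% of the genes tested). DESeq2 passed 68 genes, 25 of them among the 30. With library sizes alone as the scaling, 31 genes were higher and 28 lower, a share of 52.5% higher against 63.3% with TMM. Without the SP-prefixed control the count was 1 gene, MUC16, which kept 1.72 on the log2 scale (edgeR, adjusted p = 0.0199). No gene passed without the unprefixed control (202 genes with an unadjusted p under 0.05) or without the unprefixed knockdown-labelled library (538 genes), and 390 passed without the SP-prefixed knockdown-labelled library, 18 of them among the 30. These fits have no group term and a lone library in 1 arm, assumed to vary like the others. Differences between the groups therefore enter every value from a fit with 1 library left out.

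The control pair differed more widely than the knockdown-labelled pair. For each pair, the difference is that of log2 CPM with a prior count of 2, SP-prefixed minus unprefixed, and it has no test because each side is 1 library. In the knockdown-labelled pair 179 genes (1.09%) were more than 2-fold higher and 260 (1.58%) more than 2-fold lower with the prefix, and in the control pair 497 (3.03%) and 339 (2.06%). Both pairs passed 2-fold in the same direction for 54 higher and 68 lower genes, and in opposite directions for 13. Over the 11308 genes with a mean of at least 5 CPM, the differences had an SD of 0.24 in the knockdown-labelled and 0.41 in the control pair. They shared their sign in 55.2% of these genes, and Pearson's r between the pairs was 0.34 across genes, which are not independent replicates. Whether the prefix difference depends on the group could not be tested, because that model leaves no residual degree of freedom. Over all chromosomes, median fitted differences lay between -0.03 and 0.05, so no chromosome stood out as a block.

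**Figure D2:**
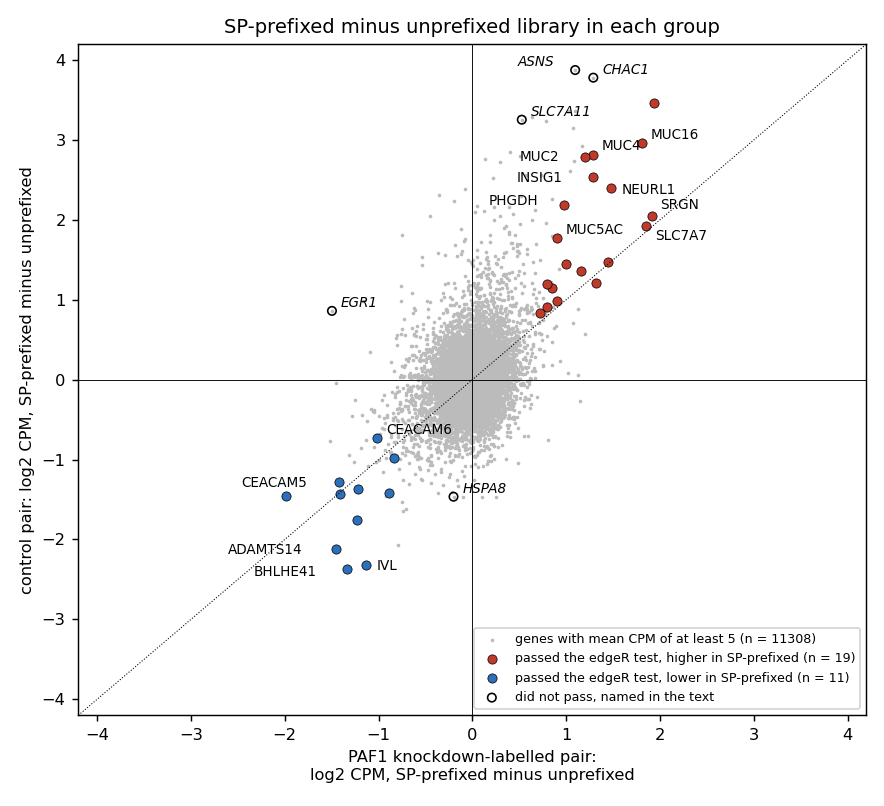
SP-prefixed minus unprefixed difference of log2 CPM, in the knockdown-labelled pair (horizontal) and in the control pair (vertical). Grey points are 11308 genes with a mean of at least 5 CPM, filled points are the 19 higher and 11 lower genes past the edgeR test, and open points are genes named in the text that did not pass. The grey cloud is taller than it is wide, and EGR1 lies on opposite sides of 0 in the pairs.

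Of 10 measured mucins, 4 passed the test, all of them higher in the SP-prefixed libraries, beside 0.116% of all genes tested. MUC16, the membrane-tethered mucin that carries the CA125 antigen (chr19:8848844-8981342, minus strand, GRCh38), had 319.6 and 804 CPM in the SP-prefixed knockdown-labelled and control libraries, against 91.2 and 103 CPM in the unprefixed knockdown-labelled and control libraries. The groups of libraries did not overlap, and MUC16 rose by 2.39 ± 0.24 on the log2 scale (SE, n = 2 libraries per prefix, edgeR, Benjamini-Hochberg adjusted p = 0.0313). Here and below, the SE was derived from the test statistic, whose spread is moderated over all genes, and is not the scatter of the libraries alone. The MUC16 difference was 1.81 in the knockdown-labelled and 2.97 in the control pair. MUC4, a membrane mucin that binds ERBB2 (chr3:195746765-195812277, minus strand), had 94.8 and 196 CPM in the SP-prefixed and 38.9 and 27.9 CPM in the unprefixed libraries, knockdown-labelled library first. It rose by 2.05 ± 0.30 (edgeR, adjusted p = 0.0435).

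Both gel-forming mucins that passed lie in the mucin cluster of chromosome 11. MUC2, the main mucin of the intestine (chr11:1074875-1110511, plus strand), had 47.9 CPM in the SP-prefixed and 20.8 CPM in the unprefixed knockdown-labelled library, and 119 CPM in the SP-prefixed and 17.2 CPM in the unprefixed control, and rose by 2.01 ± 0.31 (edgeR, adjusted p = 0.0443). MUC5AC, the gastric surface mucin (chr11:1157953-1201138, plus strand), had 508 and 1182 CPM in the SP-prefixed knockdown-labelled and control libraries and 272 and 345 CPM in the unprefixed ones, and rose by 1.34 ± 0.19 (edgeR, adjusted p = 0.0435). In both genes the SP-prefixed control was highest and the SP-prefixed knockdown-labelled library second, and without the SP-prefixed control the differences were 1.33 (MUC2) and 0.72 (MUC5AC).

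The other mucins did not follow. MUC5B, the third secreted mucin of that cluster, had 12.4 CPM in the SP-prefixed and 12.6 CPM in the unprefixed knockdown-labelled library, and 43.2 CPM in the SP-prefixed and 25.5 CPM in the unprefixed control (log2 fold change 0.40 ± 0.20). MUC1, a cell-surface mucin of ducts and glands, pointed the other way in both pairs, with 71.6 and 143 CPM in the SP-prefixed and 115 and 229 CPM in the unprefixed libraries (-0.68 ± 0.13; edgeR, adjusted p = 0.085). MUC20 (-0.43 ± 0.17), MUC6 (0.57 ± 0.33), MUC3A (0.92 ± 0.36) and MUC13 (0.08 ± 0.31) did not pass either. MUC12, MUC15, MUC17 and MUC21 were under the expression filter, none with more than 7 counts in a library. The median over the 10 measured mucins was 0.75, against -0.01 over all genes tested, with 0.32 in the knockdown-labelled and 1.14 in the control pair. Mucin genes hold tandem repeats and near-identical stretches, so how the authors' counting placed such reads can affect these values.

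Cholesterol synthesis and uptake genes stood higher with the prefix as a nearly complete set, although most did not pass the test. Of 24 measured members 2 passed, INSIG1 among them, beside 0.116% of all genes tested. A total of 19 members were higher at an unadjusted p under 0.05 and none lower, beside 5.48% and 4.98% of all genes tested. Both SP-prefixed libraries were above both unprefixed libraries in 21 of 24, beside 17.0% of all genes. The median was 0.77, with 0.43 in the knockdown-labelled and 1.08 in the control pair, and 0.38 without the SP-prefixed control.

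INSIG1, the endoplasmic reticulum protein that holds back the SREBP transcription factors when sterols are plentiful, had 47.4 and 118 CPM in the SP-prefixed against 19.5 and 20.1 CPM in the unprefixed libraries, knockdown-labelled library first. It rose by 1.93 ± 0.26 (SE, n = 2 libraries per prefix; edgeR, Benjamini-Hochberg adjusted p = 0.0435). The unprefixed libraries were nearly equal and the SP-prefixed control was highest, and without that library INSIG1 had 1.26.

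Members along the pathway gave smaller differences. HMGCS1, which makes the precursor of mevalonate, had 51.1 CPM in the SP-prefixed and 42.1 CPM in the unprefixed knockdown-labelled library, and 87.1 CPM in the SP-prefixed and 37.6 CPM in the unprefixed control (0.75 ± 0.21; edgeR, adjusted p = 0.219). The SP-prefixed control was highest, and the pairs differed in the same direction.

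Further along, fitted log2 differences were 1.34 ± 0.27 for the sterol oxidase MSMO1, 0.93 ± 0.16 for the squalene synthase FDFT1, 0.86 ± 0.16 for the isomerase IDI1 and 0.79 ± 0.19 for the squalene epoxidase SQLE. DHCR7, which makes cholesterol in the last step, and SREBF2, the transcription factor of the pathway, both had 1.00 (SE 0.18 for DHCR7 and 0.20 for SREBF2). STARD4, a cytosolic sterol carrier, had 1.16 ± 0.28. The sole negative member was the mevalonate pathway kinase PMVK (-0.18 ± 0.18). None of the genes in this paragraph passed, with edgeR adjusted p-values of 0.0689 (DHCR7) to 0.826 (PMVK).

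The fatty acid list was shifted less, with a median of 0.33 over 19 members (0.11 in the knockdown-labelled and 0.52 in the control pair). No member passed, while 9 were higher and 1 lower at an unadjusted p under 0.05 (5.48% and 4.98% of all genes). The desaturase FADS2 had 42.3 and 105 CPM in the SP-prefixed and 24.5 and 26.8 CPM in the unprefixed libraries (1.39 ± 0.25; edgeR, adjusted p = 0.0695). SCD, the stearoyl-CoA desaturase, had 186 CPM in the SP-prefixed and 141 CPM in the unprefixed knockdown-labelled library, and 785 CPM in the SP-prefixed and 222 CPM in the unprefixed control. FASN, the fatty acid synthase, had 0.39 ± 0.13, and SREBF1, the regulator of this branch, 0.23 ± 0.16. ACSL5, which activates long-chain fatty acids, was the member at an unadjusted p under 0.05 in the lower direction (-0.46 ± 0.15).

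The proximal promoters of INSIG1 and HMGCS1 are printed for short motifs known from sterol-regulated genes. Both windows hold CCAAT, bound by NF-Y, and that of INSIG1 also holds CACGTG, an E-box. Each window runs from 250 bases before to 50 bases after the start site of RefSeq on GRCh38.p14, on the strand of the gene (INSIG1 chr7:155297628-155297927, plus; HMGCS1 chr5:43313363-43313662, minus), with capitals for CCAAT, its reverse complement ATTGG and CACGTG. These genes, and those printed below for ATF4, were chosen after their values were seen.
INSIG1: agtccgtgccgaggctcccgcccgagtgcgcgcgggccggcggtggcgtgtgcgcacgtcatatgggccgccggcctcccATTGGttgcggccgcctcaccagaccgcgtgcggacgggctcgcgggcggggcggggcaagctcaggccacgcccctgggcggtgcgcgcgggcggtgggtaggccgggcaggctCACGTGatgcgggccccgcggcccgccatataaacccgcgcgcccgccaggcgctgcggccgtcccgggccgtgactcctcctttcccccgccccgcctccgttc
HMGCS1: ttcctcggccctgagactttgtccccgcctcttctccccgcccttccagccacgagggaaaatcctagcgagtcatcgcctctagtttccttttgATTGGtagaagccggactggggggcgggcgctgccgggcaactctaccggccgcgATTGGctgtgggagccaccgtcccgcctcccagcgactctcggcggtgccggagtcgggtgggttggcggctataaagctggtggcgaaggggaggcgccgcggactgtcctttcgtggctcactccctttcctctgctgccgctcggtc
CCAAT stood in 15 of the 18 members of the list that had a promoter in the table (83.3%), against 34.6% of all 35116 promoters of this length, and CACGTG in 3 of 18 (16.7%) against 7.26%. The sterol regulatory element TCACNCCAC, where N is any base, stood in 1 of 18 (5.56%) against 1.13%, and in neither window printed here. The letters were looked for on both strands. A match describes the sequence and does not show that a factor binds there, and base composition was not taken into account. The GC-rich letters GGGCGG stood in 17 of 18 (94.4%) against 45% of all promoters. These shares describe the list and not the difference between the libraries.

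Genes of the ATF4 integrated stress response had the largest list median, 1.07 over 24 measured members. PHGDH was the 1 member that passed, beside 0.116% of all genes tested. Of the 24, 21 were higher at an unadjusted p under 0.05 and none lower, beside 5.48% and 4.98% of all genes tested. Both SP-prefixed libraries were above both unprefixed ones in 19, beside 17.0% of all genes. The median was 0.44 in the knockdown-labelled pair and 1.84 in the control pair, and 0.50 without the SP-prefixed control. PHGDH, the first enzyme of serine synthesis (chr1:119659798-119744215, plus strand), had 92.3 and 222 CPM in the SP-prefixed and 46.8 and 48.5 CPM in the unprefixed libraries, knockdown-labelled library first. It rose by 1.59 ± 0.25 (SE, n = 2 libraries per prefix; edgeR, Benjamini-Hochberg adjusted p = 0.0443), and had 0.95 without the SP-prefixed control.

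Members with larger fitted differences, whose pairs differed more in size, did not pass. ASNS, the asparagine synthetase, had 45.3 CPM in the SP-prefixed and 21.1 CPM in the unprefixed knockdown-labelled library, and 257 CPM in the SP-prefixed and 17.5 CPM in the unprefixed control (2.52 ± 0.52; edgeR, adjusted p = 0.0937). CHAC1, which degrades glutathione, had 12.6 and 87.8 CPM in the SP-prefixed against 5.09 and 6.302 CPM in the unprefixed libraries (2.69 ± 0.46; adjusted p = 0.0663). TRIB3, a pseudokinase induced by ATF4, had 41.4 and 247 CPM against 19.3 and 23.8 CPM in the same order (2.27 ± 0.42; adjusted p = 0.0776). In all of these the SP-prefixed control held several times the level of the SP-prefixed knockdown-labelled library, which was itself the second highest.

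The transcription factor's own mRNA, ATF4, had 303 and 597 CPM in the SP-prefixed and 226 and 183 CPM in the unprefixed libraries (1.07 ± 0.25; edgeR, adjusted p = 0.138). SLC7A11, the cystine transporter subunit, had 244 CPM in the SP-prefixed and 169.7 CPM in the unprefixed knockdown-labelled library, and 732 CPM in the SP-prefixed and 76.7 CPM in the unprefixed control. DDIT3, the transcription factor CHOP, had 1.47 ± 0.34, the serine synthesis phosphatase PSPH 1.20 ± 0.23 and the mitochondrial carboxykinase PCK2 1.68 ± 0.34. ATF3, a stress-induced transcription factor, had -0.36 in the knockdown-labelled and 2.31 in the control pair, and the growth factor VEGFA -0.09 and 1.74. ATF5 was the sole member with a negative fit, with 34.4 CPM in the SP-prefixed and 31.8 CPM in the unprefixed knockdown-labelled library, and 17.4 CPM in the SP-prefixed and 36.8 CPM in the unprefixed control.

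**Figure D3:**
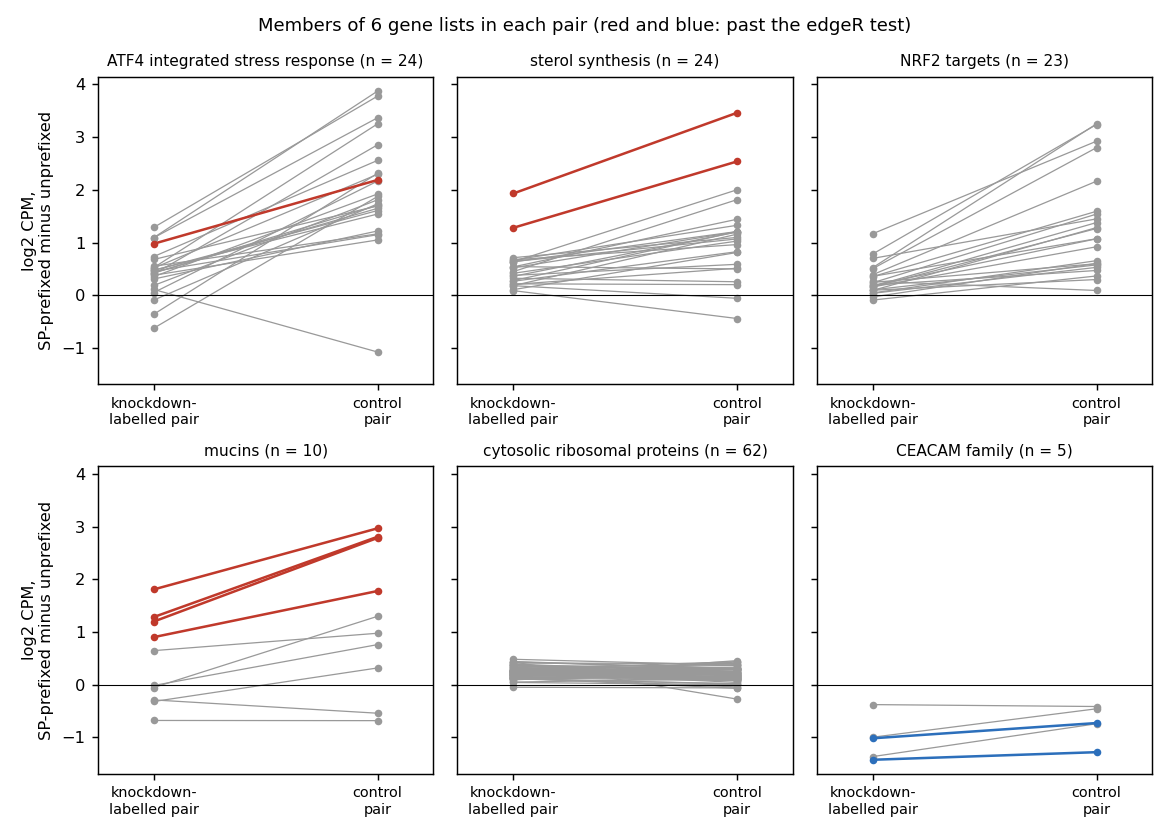
SP-prefixed minus unprefixed difference of log2 CPM for each measured member of 6 gene lists, in the knockdown-labelled pair (left) and the control pair (right). Each line is 1 gene, and red and blue lines passed the edgeR test. Lines of the stress response, sterol and NRF2 lists climb towards the control pair, whereas those of the ribosomal protein list stay flat near 0.2.

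Promoters of ASNS (chr7:97872359-97872658, minus strand) and CHAC1 (chr15:40953221-40953520, plus strand) are shown for the element TGATGNAA, known from ATF4 target genes, where N is any base. Windows are as above, from RefSeq on GRCh38.p14, with capitals for this element and CCAAT on either strand.
ASNS: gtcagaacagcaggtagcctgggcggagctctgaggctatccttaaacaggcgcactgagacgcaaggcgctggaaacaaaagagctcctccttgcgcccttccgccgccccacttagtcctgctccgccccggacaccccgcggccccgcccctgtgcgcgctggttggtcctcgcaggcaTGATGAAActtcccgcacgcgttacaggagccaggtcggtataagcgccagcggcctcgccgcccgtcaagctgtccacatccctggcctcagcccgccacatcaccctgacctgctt
CHAC1: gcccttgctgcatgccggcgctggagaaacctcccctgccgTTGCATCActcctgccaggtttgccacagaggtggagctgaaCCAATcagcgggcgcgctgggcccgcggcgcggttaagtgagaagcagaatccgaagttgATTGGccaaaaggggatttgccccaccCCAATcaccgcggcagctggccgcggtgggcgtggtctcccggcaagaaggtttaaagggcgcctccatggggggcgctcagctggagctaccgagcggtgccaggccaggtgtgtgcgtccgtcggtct
The element stood in the ASNS window 68 bases before the start site and in the CHAC1 window 209 bases before it, on the minus strand of that window. It stood in 5 of the 19 list members with a promoter in the table (26.3%), against 3.62% of all promoters. CCAAT stood in 11 of 19 (57.9%) against 34.6%, and TGACTCA, also looked for, in 3 of 19 (15.8%) against 4.95%. The list gathers genes of the ATF4 response, so these shares describe the list and not the difference between the libraries. TGATGNAA was added to the search after the values were seen.

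Neighbouring programmes of the same cells were shifted in the same direction. Of 20 cytosolic aminoacyl-tRNA synthetases, which charge tRNAs with amino acids, none passed. At an unadjusted p under 0.05, 9 were higher and none lower (5.48% and 4.98% of all genes). The median was 0.23 (0.18 in the knockdown-labelled and 0.32 in the control pair). GARS1, the glycyl enzyme, had 237 and 523 CPM in the SP-prefixed and 181 and 145 CPM in the unprefixed libraries, and TARS1, the threonyl enzyme, 299.9 and 374 CPM against 224 and 184 CPM. Several synthetases lay near 0, such as KARS1 (0.00 ± 0.14) and QARS1 (0.08 ± 0.13).

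All 23 measured NRF2 targets had a positive fitted difference. NRF2, encoded by NFE2L2, is the transcription factor of the antioxidant response. None of the 23 passed, and 17 were higher at an unadjusted p under 0.05, beside 5.48% of all genes. The median was 0.69, with 0.19 in the knockdown-labelled and 1.07 in the control pair and 0.28 without the SP-prefixed control. AKR1B10, an aldo-keto reductase, had 8.59 CPM in the SP-prefixed and 3.76 CPM in the unprefixed knockdown-labelled library, and 34.4 CPM in the SP-prefixed and 4.45 CPM in the unprefixed control (2.17 ± 0.35; edgeR, adjusted p = 0.052). TXNRD1, the thioredoxin reductase, had 528 and 1096 CPM in the SP-prefixed and 448 and 376 CPM in the unprefixed libraries, and the classic target NQO1 808 and 974 CPM against 859 and 755 CPM (0.14 ± 0.14). AKR1C1 (2.01 ± 0.45) has near-identical paralogs, so its reads may be split or shared with them.

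**Figure D4:**
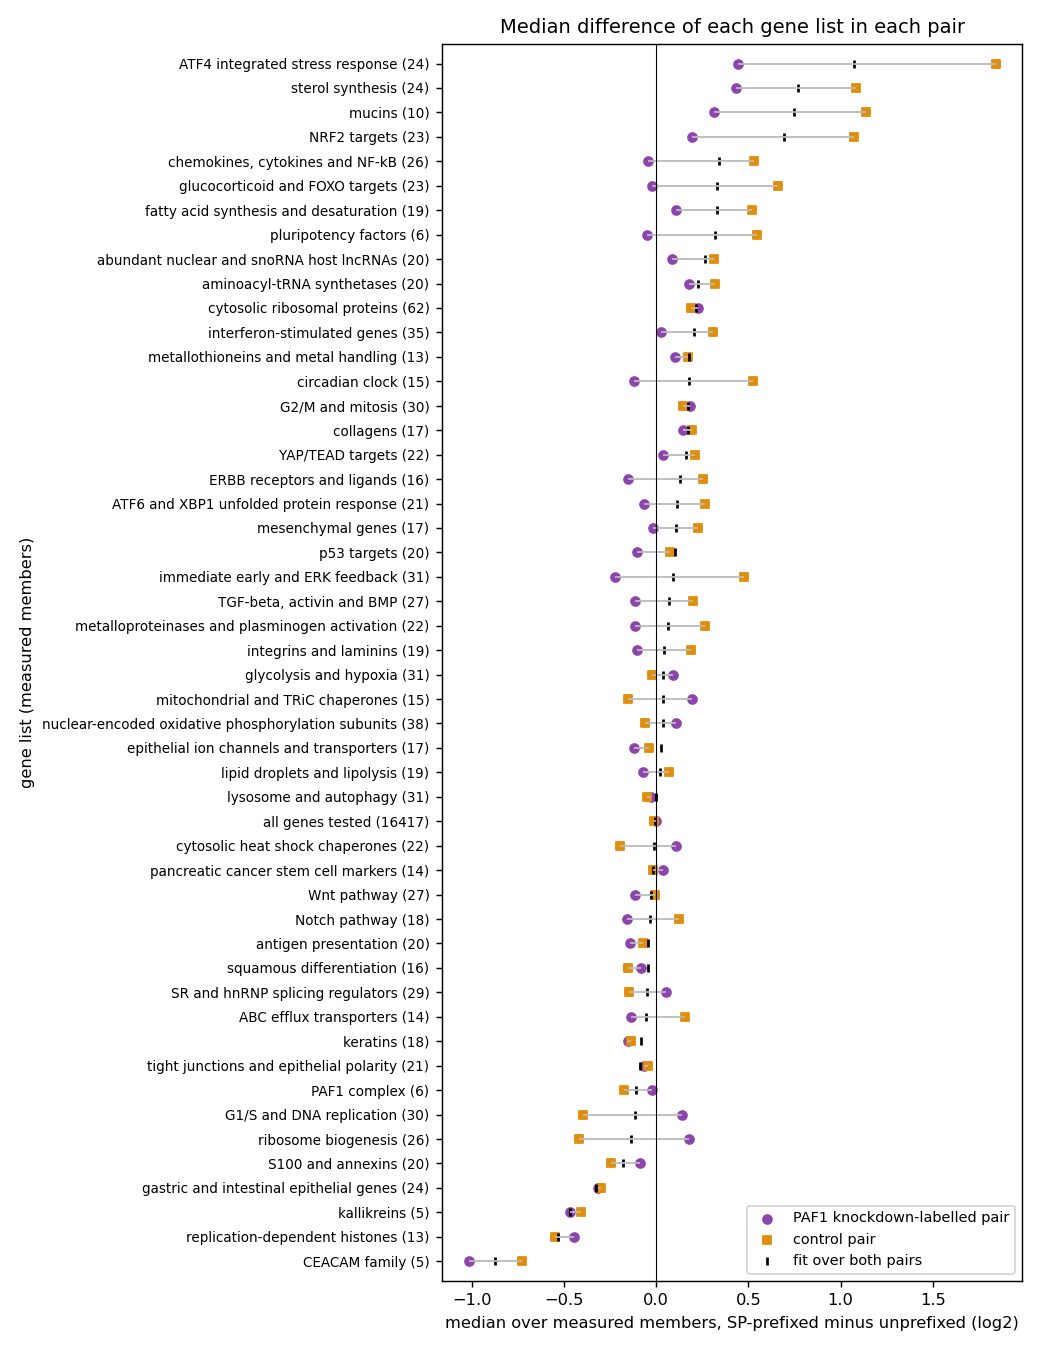
Median SP-prefixed minus unprefixed difference (log2) over the measured members of each gene list, with the number of members in brackets. Circles are the knockdown-labelled pair, squares the control pair and ticks the fit over both pairs. The stress response, sterol, mucin and NRF2 lists lie farthest to the right in the control pair, the CEACAM and histone lists lie left of 0 in both pairs, and all genes tested lie at 0.

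Long transcripts were common among the genes that rose. Of the 19 higher genes, 11 had more than 12000 bases of exon, as do 4.88% of all genes tested, and the median exon length was 15830 bases in the higher, 3052 in the lower and 4253 in all genes. Apart from the 4 mucins they were FAT4, FRAS1, UBR4, SYNE2, DYNC1H1, HUWE1 and AHNAK. DYNC1H1, the heavy chain of cytoplasmic dynein, had 1535 and 1470.1 CPM in the SP-prefixed against 823 and 744 CPM in the unprefixed libraries, knockdown-labelled library first, and rose by 0.94 ± 0.12 (SE, n = 2 libraries per prefix; edgeR, Benjamini-Hochberg adjusted p = 0.0435). AHNAK, a giant scaffold protein, had 1778 and 1749.7 CPM in the SP-prefixed against 1075 and 981 CPM in the unprefixed libraries (0.78 ± 0.12; adjusted p = 0.0469). Unlike in the mucins, the SP-prefixed libraries were close to each other.

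UBR4, a ubiquitin ligase of the N-degron pathway, had 304 and 341 CPM in the SP-prefixed and 169 and 153 CPM in the unprefixed libraries (1.00 ± 0.14; edgeR, adjusted p = 0.0435). HUWE1, another large ubiquitin ligase, had 521 and 579 CPM against 301 and 308 CPM (0.85 ± 0.13). SYNE2, the nuclear envelope protein nesprin-2, had 129 and 156 CPM against 74.5 and 67.9 CPM (1.00 ± 0.15). FRAS1, an extracellular matrix protein of the epithelial basement membrane, rose by 1.23 ± 0.16. FAT4, an atypical cadherin, rose by 1.28 ± 0.18 and had its highest level, 28.5 CPM, in the SP-prefixed knockdown-labelled library, with 12.2 CPM in the SP-prefixed control and 11.3 and 5.24 CPM in the unprefixed libraries. FAT4 had 0.57 without the SP-prefixed knockdown-labelled library and 0.84 without the unprefixed control.

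Most long genes lay near 0. Length classes were taken over the 11308 genes with a mean of at least 5 CPM. The 602 genes between 12000 and 20000 bases had a median of 0.04. The 80 genes above 20000 bases had 0.11 (0.03 in the knockdown-labelled and 0.26 in the control pair). Spearman's rho between exon length and the difference, across the same 11308 genes, was 0.01 for the fit, -0.15 in the knockdown-labelled and 0.11 in the control pair. After removal of the trend of each library's levels with length 3 genes passed, MUC16 and SLC7A7 among them, and MUC16 kept 2.17 (edgeR, adjusted p = 0.0244). After removal of the trend with GC content 146 genes passed, the 30 among them. Both removals were added after the values were seen.

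**Figure D5:**
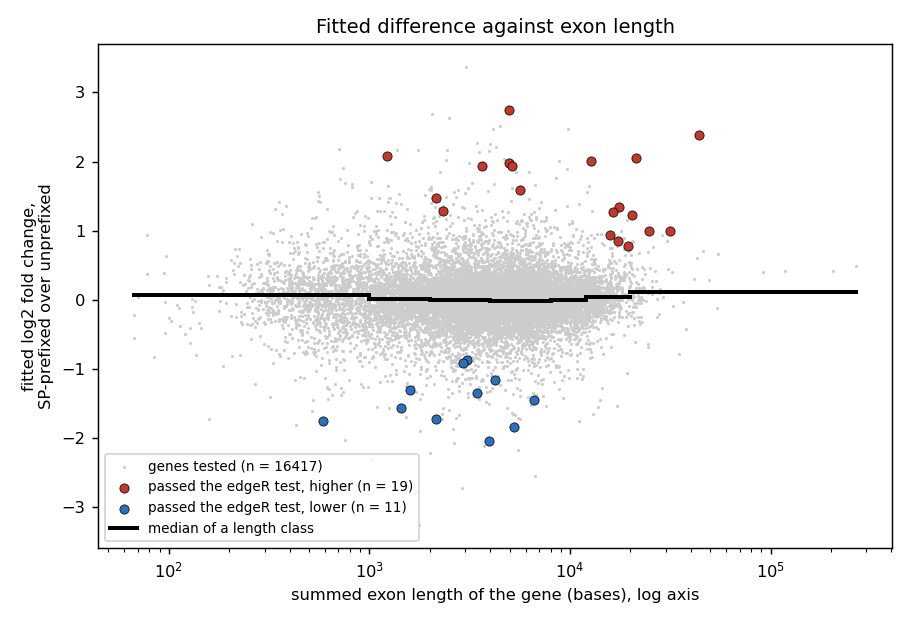
Fitted log2 fold change, SP-prefixed over unprefixed, against summed exon length on a log axis for 16417 genes. Red and blue points passed the edgeR test (19 higher, 11 lower). Black lines are medians of length classes over the genes with a mean of at least 5 CPM. Of the 19 red points, 11 lie beyond 12000 bases, while the class medians stay between -0.02 and 0.11.

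The remaining genes that rose have diverse roles. SRGN, the proteoglycan core protein serglycin, had 4.85 and 3.59 CPM in the SP-prefixed and 1.22 and 0.793 CPM in the unprefixed libraries (2.08 ± 0.29; edgeR, adjusted p = 0.0435), and is a low-abundance gene here. NEURL1, a ubiquitin ligase of the neuralized family whose Drosophila counterpart acts on Notch ligands, had 10.01 and 14.1 CPM against 3.53 and 2.600 CPM (1.98 ± 0.26). SLC7A7, a subunit of a cationic amino acid exporter, had 6.53 and 13.4 CPM against 1.74 and 3.44 CPM (1.94 ± 0.23; adjusted p = 0.0409). For SRGN and SLC7A7 the pairs gave close differences, 1.91 and 1.85 in the knockdown-labelled pair and 2.04 and 1.93 in the control pair.

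FBXO2, a substrate adaptor that recognises sugar chains on misfolded glycoproteins, had 11.01 and 15.999 CPM in the SP-prefixed and 4.86 and 6.17 CPM in the unprefixed libraries, and rose by 1.28 ± 0.20. AL136164.4, a transcript of unverified status in the annotation, had 11.8 and 9.72 CPM in the SP-prefixed and 4.28 and 3.44 CPM in the unprefixed libraries (1.48 ± 0.21). Whether counting used the strand is not given in the sources read here, and reads of overlapping and antisense genes cannot be told apart.

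The CEACAM family was lower with the prefix in every measured member and both pairs. CEACAM proteins are cell-surface adhesion glycoproteins of epithelia, and CEACAM5 is the carcinoembryonic antigen used as a serum marker. CEACAM6 (chr19:41750977-41772208, plus strand) had 733 CPM in the SP-prefixed and 1482 CPM in the unprefixed knockdown-labelled library, and 1462 CPM in the SP-prefixed and 2420.5 CPM in the unprefixed control. It fell by 0.87 ± 0.13 on the log2 scale (SE, n = 2 libraries per prefix; edgeR, Benjamini-Hochberg adjusted p = 0.0443). CEACAM5 (chr19:41576273-41729798, plus strand) had 3.58 CPM in the SP-prefixed and 9.78 CPM in the unprefixed knockdown-labelled library, and 18.1 CPM in the SP-prefixed and 44.2 CPM in the unprefixed control, and fell by 1.35 ± 0.18 (adjusted p = 0.0435).

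Because CEACAM5 also differed between the groups, the SP-prefixed control was above the unprefixed knockdown-labelled library, and the prefix difference shows within each group. CEACAM1, CEACAM8 and CEACAM19 had fitted differences of -0.72 ± 0.17, -1.03 ± 0.26 and -0.41 ± 0.27 and did not pass. When 1 library was left out, and with it the group term, the difference of CEACAM6 lay between -1.41 and -0.42 and that of CEACAM5 between -2.92 and 0.15, the last without the unprefixed control. The family median was -0.87, with -1.02 in the knockdown-labelled and -0.73 in the control pair. CEACAM genes are close paralogs that can share reads. CEACAM3 and CEACAM7 were under the expression filter.

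Of 16 measured squamous differentiation genes, 2 passed as lower, IVL and SPRR3, and none as higher (0.067% and 0.116% of all genes tested). At an unadjusted p under 0.05, 6 were lower (4.98% of all genes). IVL, involucrin of the cornified envelope (chr1:152908545-152911886, plus strand), had 17.1 and 8.47 CPM in the SP-prefixed against 37.6 and 42.7 CPM in the unprefixed libraries, knockdown-labelled library first (-1.72 ± 0.26; edgeR, Benjamini-Hochberg adjusted p = 0.0443). SPRR3, a small proline-rich protein of the same envelope and gene cluster, had 1.897 and 4.49 CPM against 4.57 and 15.3 CPM (-1.57 ± 0.24; adjusted p = 0.0443), and its difference was -0.52 without the unprefixed control. SPRR1B, a further member of that cluster, had -1.43 ± 0.26 (adjusted p = 0.0712), and SPRR genes are near copies of each other. The list as a whole had a median of -0.05, with 8 members positive and 8 negative, the highest at 0.82. Members such as TP63 (0.02 ± 0.21) and PPL (0.14 ± 0.13) lay near 0.

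KRT13, a keratin of stratified mucosa, was the 1 of 18 measured keratins that passed, beside 0.067% of all genes tested that passed as lower. It had 50.7 CPM in the SP-prefixed and 90.5 CPM in the unprefixed knockdown-labelled library, and 129 CPM in the SP-prefixed and 255 CPM in the unprefixed control (-0.91 ± 0.14; edgeR, adjusted p = 0.0443). As with CEACAM5, the SP-prefixed control lay above the unprefixed knockdown-labelled library, and the difference shows within each group. Without the unprefixed control the fit, which then has no group term, gave -0.017 for KRT13. KRT6A, a keratin of activated squamous cells, had 417 and 311 CPM in the SP-prefixed against 671 and 575 CPM in the unprefixed libraries (-0.79 ± 0.13; adjusted p = 0.055). KRT19, the ductal keratin, had -0.42 ± 0.13, KRT7 -0.12 ± 0.12 and KRT8 0.02 ± 0.12.

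Genes of gastric and intestinal epithelium leaned lower without a call. Of 24 measured members, none passed, and 9 were lower and none higher at an unadjusted p under 0.05 (4.98% and 5.48% of all genes). The median was -0.32, with -0.31 in the knockdown-labelled and -0.30 in the control pair. AGR2, a protein disulfide isomerase needed for mucin folding, had 86.5 and 176 CPM in the SP-prefixed and 166 and 246 CPM in the unprefixed libraries (-0.71 ± 0.15; edgeR, adjusted p = 0.109). PSCA, a surface antigen of gastric and tumour epithelium, had 113 and 299.7 CPM against 196 and 427 CPM (-0.65 ± 0.14). ONECUT3 (-0.70 ± 0.16) lay lower in both pairs, and GATA6, the transcription factor of the classical subtype of pancreatic cancer, had 0.35 ± 0.16. AGR2 and PSCA thus lay on the opposite side of 0 from MUC2 and MUC5AC.

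Other genes that fell stood alone. NTSR1, the high-affinity neurotensin receptor, had 49.0 and 42.7 CPM in the SP-prefixed and 90.8 and 114 CPM in the unprefixed libraries (-1.16 ± 0.17; edgeR, Benjamini-Hochberg adjusted p = 0.0435). TCN1, a vitamin B12 binding protein of secretions, had 7.01 and 8.17 CPM against 16.5 and 21.3 CPM (-1.31 ± 0.18). POU2F3, the transcription factor of tuft cells, had 3.003 and 4.24 CPM against 8.16 and 11.6 CPM (-1.45 ± 0.21; adjusted p = 0.0443). In all of these, chosen by that test, both SP-prefixed libraries were below both unprefixed libraries, beside 16.6% of all genes tested.

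ADAMTS14, a procollagen N-propeptidase, had 2.16 and 2.19 CPM in the SP-prefixed and 6.08 and 9.83 CPM in the unprefixed libraries (-1.84 ± 0.26; edgeR, adjusted p = 0.0435). BHLHE41, a repressor of the circadian clock, had 0.948 and 1.84 CPM against 2.55 and 9.92 CPM (-2.05 ± 0.31, edgeR adjusted p = 0.0443). It was the 1 of 15 measured clock genes that passed, beside 0.067% of all genes tested that passed as lower. Without the unprefixed control it had -0.87. A long intergenic RNA, ENSG00000272622, had 1.37 and 1.94 CPM against 5.73 and 5.51 CPM (-1.76 ± 0.27).

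Some lists showed small differences that were of like size in both pairs. Ribosomal protein genes were the plainest case. Of 62 measured members none passed, 15 were higher and none lower at an unadjusted p under 0.05 (5.48% and 4.98% of all genes), and the median was 0.22, with 0.23 in the knockdown-labelled and 0.19 in the control pair. Both SP-prefixed libraries were above both unprefixed libraries in 56 of 62, beside 17.0% of all genes. RPS3A had 106 and 109 CPM in the SP-prefixed against 75.7 and 84.4 CPM in the unprefixed libraries (0.43 ± 0.14; edgeR, adjusted p = 0.3), and RPL28, at the other end, 458 and 486 CPM against 473 and 507 CPM (-0.05 ± 0.13). Without the SP-prefixed control the median was 0.22.

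Genes of mitosis had a median of 0.17 over 30 members, with 0.19 in the knockdown-labelled and 0.15 in the control pair. None passed, and 7 members were higher at an unadjusted p under 0.05, beside 5.48% of all genes. Leaving out 1 library gave medians of 0.067 to 0.27. MKI67, the proliferation antigen, had 586 and 537 CPM in the SP-prefixed and 418 and 367 CPM in the unprefixed libraries (0.52 ± 0.13; edgeR, adjusted p = 0.154). Histone genes of the replication-dependent kind were lower, with a median of -0.53 over 13 members. Of these, 6 were lower and 1 higher at an unadjusted p under 0.05 (4.98% and 5.48% of all genes). H1-2, a linker histone, had 11.9 and 17.6 CPM in the SP-prefixed against 18.7 and 25.8 CPM in the unprefixed libraries (-0.60 ± 0.17). Histone genes are near copies of each other, their mRNAs mostly lack a poly(A) tail, and the higher member, H1-10, is a replication-independent variant.

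Interferon-stimulated genes had 12 of 35 members higher and none lower at an unadjusted p under 0.05 (5.48% and 4.98% of all genes), and none passed. IFIT2, an inhibitor of translation, had 64.4 and 54.98 CPM in the SP-prefixed against 36.8 and 29.04 CPM in the unprefixed libraries (0.86 ± 0.15; edgeR, adjusted p = 0.0653). OASL, a sensor-associated antiviral protein, had 22.6 and 32.2 CPM against 16.2 and 10.00 CPM (1.08 ± 0.26). The median was 0.21, with 0.02 in the knockdown-labelled and 0.31 in the control pair, and 0.09 without the SP-prefixed control.

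Lists tied to the side population held no call. The titles place every library in that fraction and abbreviate it as SP. Whether the unprefixed names mark other cells is not stated, so the values are not read as a comparison of that fraction with other cells. Of 14 measured ABC transporters none passed, and 3 were higher and 1 lower at an unadjusted p under 0.05 (5.48% and 4.98% of all genes). ABCG2, the main dye exporter (chr4:88090264-88231322, minus strand), had 124 CPM in the SP-prefixed and 99.7 CPM in the unprefixed knockdown-labelled library, and 108 CPM in the SP-prefixed and 64.5 CPM in the unprefixed control. Both SP-prefixed libraries were thus above both unprefixed ones, by 0.53 ± 0.15 on the log2 scale (edgeR, Benjamini-Hochberg adjusted p = 0.249). ABCC1, a drug and glutathione conjugate exporter, had 282 and 445 CPM in the SP-prefixed and 252 and 271 CPM in the unprefixed libraries (0.44 ± 0.16), and ABCC2 1.20 ± 0.36 at no more than 2.34 CPM.

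ABCA1, a cholesterol exporter, had -0.36 ± 0.15 and ABCC3, a bile salt and conjugate exporter, -0.22 ± 0.20, with opposite signs in the pairs (-0.68 in the knockdown-labelled and 0.24 in the control pair). The other measured ABC members lay between -0.33 (ABCA3) and 0.27 (ABCA5). ABCB1, the multidrug transporter P-glycoprotein, had 0 counts in both knockdown-labelled libraries and 1 count in each control, which at this depth shows no detectable difference. The list median was -0.06. Leaving out the SP-prefixed control gave -0.29, and leaving out the unprefixed control gave 0.18. Leaving out the SP-prefixed knockdown-labelled library gave 0.36. These fits have no group term, so differences between the groups enter them.

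Of 14 measured pancreatic cancer stem cell markers none passed, and the median was -0.02, with -0.13 to 0.16 when 1 library was left out. CD24, a mucin-like surface glycoprotein, had 5.22 and 7.68 CPM in the SP-prefixed and 10.5 and 15.5 CPM in the unprefixed libraries (-1.01 ± 0.19; edgeR, adjusted p = 0.0778), with a like difference in both pairs. CD44, the hyaluronan receptor, had 843 CPM in the SP-prefixed and 818 CPM in the unprefixed knockdown-labelled library, and 608 CPM in the SP-prefixed and 718 CPM in the unprefixed control (-0.10 ± 0.13). MET, the receptor of hepatocyte growth factor, had 0.31 ± 0.14, and the remaining members, such as DCLK1 (0.25 ± 0.17), CD9 (0.11 ± 0.15), NES (0.09 ± 0.17), SOX9 (0.04 ± 0.15), EPCAM (-0.01 ± 0.13), ALDH1A3 (-0.02 ± 0.12) and BMI1 (-0.11 ± 0.17), lay near 0. No library held more than 2 counts of PROM1, which encodes CD133, or of ALDH1A1.

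Of 6 measured pluripotency factors none passed. SALL4 (0.67 ± 0.27), KLF4 (0.58 ± 0.25) and MYC (0.40 ± 0.15) were higher at an unadjusted p under 0.05, beside 5.48% of all genes. KLF5 (0.23 ± 0.16), SOX2 (0.15 ± 0.37) and POU5F1 (-0.31 ± 0.32) were not. KLF4 had 21.4 CPM in the SP-prefixed and 22.1 CPM in the unprefixed knockdown-labelled library, and 47.2 CPM in the SP-prefixed and 21.1 CPM in the unprefixed control, so that its difference lay in the control pair. No library held a count of PRDM14, NANOG, LIN28A or LIN28B. The partners named in the series title, the splicing factor PHF5A (0.02 ± 0.16) and the RNA helicase DDX3X (-0.03 ± 0.13), and the 6 subunits of the PAF1 complex (-0.18 to -0.02) did not pass.

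Some genes differed by very unlike amounts in the pairs. By a rule of size without a test, 10 genes in each direction were taken whose control-pair and knockdown-labelled-pair differences lay farthest apart, among genes with a mean of at least 10 CPM. Of these 20 genes, 19 differed more in the control pair, and EGR1 differed more in the knockdown-labelled pair. The control pair had the wider spread over genes with a mean of at least 5 CPM (SD 0.41 against 0.24), so this count follows in part from the rule. Beside ASNS, CHAC1 and SLC7A11, those whose control-pair difference was the higher value included KIF21B, a kinesin, with 10.3 CPM in the SP-prefixed and 9.32 CPM in the unprefixed knockdown-labelled library, and 69.6 CPM in the SP-prefixed and 10.2 CPM in the unprefixed control. HBEGF, a ligand of the EGF receptor, had 44.6 CPM in the SP-prefixed and 51.1 CPM in the unprefixed knockdown-labelled library, and 151 CPM in the SP-prefixed and 31.95 CPM in the unprefixed control. CYP4F11, ALDH1L2, AKR1C1, the pseudogene NMRAL2P and EGR1 completed these 10.

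Among the genes whose control-pair difference was the lower value, HSPA8, the constitutive chaperone of the HSP70 family, had 1583 and 1819.9 CPM in the SP-prefixed and unprefixed knockdown-labelled libraries, and 557 CPM in the SP-prefixed and 1536 CPM in the unprefixed control. HSPA1A, the stress-inducible member, had 135 CPM in the SP-prefixed and 157 CPM in the unprefixed knockdown-labelled library, and 64.2 CPM in the SP-prefixed and 169.9 CPM in the unprefixed control. It is a near copy of HSPA1B, which was also taken, as was HSPA8P5, a pseudogene of HSPA8 that can share its reads. FAM111B, TNC, ZNF488, ATF5, CCDC86 and SPRR1B completed this direction. None of the 20 genes passed the edgeR test over both pairs, with adjusted p-values from 0.0663 (CHAC1) to 0.922 (EGR1).

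Over the 22 measured cytosolic chaperones none passed, with 1 higher and 3 lower at an unadjusted p under 0.05 (5.48% and 4.98% of all genes). Besides HSPA8 (-0.83 ± 0.24), HSPA1A (-0.81 ± 0.24) and HSPA1B (-0.61 ± 0.25), DNAJA1 had -0.36 ± 0.20 and HSPH1 -0.22 ± 0.17. The HSP90 genes HSP90AA1 (0.05 ± 0.14) and HSP90AB1 (-0.10 ± 0.14) and the regulator HSF1 (-0.13 ± 0.14) lay near 0. DNAJB4, a co-chaperone, was the higher one (0.75 ± 0.25).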

How the data were processed

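RNA-seq counts per gene and lane for 4 libraries of 2 lanes each were deposited by the authors as raw whole-number counts. FastQC, HISAT2 and featureCounts, and the builds hg19 and GRCh38, are named without versions or roles, per the submitters' processing notes. The strand setting is not given in the sources used here. Identifiers (56753 of 60483) were paired with symbols and coordinates of GENCODE 29 on GRCh38. All 37 mitochondrial genes had 0 counts.

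Lanes were summed, giving 17234973 to 22348416 counts per library. Genes were filtered with filterByExpr (minimum count 10) and tested with edgeR 4.0.16 (R 4.3.3), TMM scaling and quasi-likelihood, with terms for group and prefix, at a Benjamini-Hochberg adjusted p of 0.05. The procedure was also run on simulated counts, with a prefix effect common to both groups and no library that stood apart. That setting is simpler than these data, so it does not show how the test fares here. CPM values are TMM-scaled. Alternatives were other scalings, filters, lanes, limma-voom 3.58.1, DESeq2 1.42.0 and each library left out. PCR duplicates were not separable, so intervals would cover counting error only.

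Genes were named by size among those past the test with a mean of at least 5 CPM, by membership (up to 4 per list), by the size of the gap between pairs, and all measured members of the mucin, sterol, fatty acid, ABC, stem cell, pluripotency and heat shock lists. Outside this rule, SRGN, DYNC1H1, HUWE1, AHNAK, ENSG00000272622, the examples of the other lists and the promoters were chosen after their values were seen. Values of some single genes are not reported here. The members and lists were chosen with earlier results of these data known.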

Additional observations from a re-analysis of the deposited data

Results flagged for a closer look

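Several gene lists had medians of opposite sign in the knockdown-labelled and control pairs (SP-prefixed minus unprefixed, log2). In each case the difference between the pairs was not tested, because every pair is 1 library against 1. The immediate early and ERK feedback list had -0.22 in the knockdown-labelled and 0.47 in the control pair, the circadian clock list -0.12 and 0.52, and the metalloproteinase and plasminogen activation list -0.11 and 0.26. The ERBB receptor and ligand list had -0.15 in the knockdown-labelled and 0.26 in the control pair, the TGF-beta, activin and BMP list -0.12 and 0.20, and the integrin and laminin list -0.10 and 0.19. The ABC transporters had -0.13 and 0.16, and the Notch pathway -0.16 and 0.12, in the same order.

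The opposite order was seen in lists of growth and folding. Ribosome biogenesis had 0.18 in the knockdown-labelled and -0.42 in the control pair, G1/S and DNA replication 0.14 and -0.40, cytosolic heat shock chaperones 0.11 and -0.20, and mitochondrial and TRiC chaperones 0.19 and -0.15. Among the genes named for the gap between pairs, EGR1, an immediate early transcription factor, had -1.50 in the knockdown-labelled and 0.86 in the control pair. CCDC86, a nucleolar protein, had 0.36 in the knockdown-labelled and -0.99 in the control pair.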

How the results depend on the processing

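The number of genes past the test depended on the processing, while all 30 genes kept their sign in every alternative run except CEACAM5 (0.15 without the unprefixed control). Sizes moved more: KRT13 had -0.017, SPRR3 -0.52 and BHLHE41 -0.87 without the unprefixed control, and CEACAM6 -0.42 and FAT4 0.57 without the SP-prefixed knockdown-labelled library. Fits with 1 library left out have no group term, so differences between the groups enter these values. KRT13, for example, had -0.83 in the knockdown-labelled and -0.98 in the control pair. How much of each shift this makes up was not tested. The count was 0 without the group term (849 genes at an unadjusted p under 0.05) and 0 with RLE scaling. It was 195 with upper quartile scaling, 59 with library sizes, 601 with no filter on low counts, 153 at a minimum of 50 counts and 171 with protein-coding genes alone. It was 85 in lane 1, 263 in lane 2, 68 with DESeq2, 3 after removal of the length trend and 146 after removal of the GC trend. Leaving out 1 library gave 0 to 390 genes.

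List medians moved when a library was left out. These fits have no group term either, so a turned sign can come from differences between the groups. Of 49 lists, 29 turned sign when some library was left out and 20 kept their sign throughout. Of the 29, 16 turned without the SP-prefixed control and 13 without the unprefixed control. Of lists with a median beyond 0.3 in size, 3 turned (kallikreins, pluripotency, glucocorticoid and FOXO targets). Kallikreins had the same sign in both pairs, -0.47 in the knockdown-labelled and -0.41 in the control pair. Pluripotency had -0.05 and 0.55, and glucocorticoid and FOXO targets -0.02 and 0.66, in the same order. ABC transporters ranged from -0.29 to 0.36, ribosome biogenesis from -0.49 to 0.28, G1/S from -0.39 to 0.12, mesenchymal genes from -0.26 to 0.33 and immediate early genes from -0.11 to 0.41. Lane 1 gave -0.66 for CEACAM, -0.20 for kallikreins, -0.27 for squamous genes and -0.65 for histones, lane 2 -0.39 for histones, and a minimum of 50 counts -0.36 for squamous genes. Leaving out 1 library gave 0.50 to 1.78 for the stress response, 0.38 to 1.10 for sterol synthesis, 0.54 to 1.20 for mucins, 0.28 to 0.93 for NRF2 targets, 0.13 to 0.55 for fatty acids, 0.04 to 0.56 for chemokines, -0.13 to 0.79 for glucocorticoid and FOXO targets, -0.13 to 0.62 for pluripotency factors, -1.41 to -0.42 for CEACAM, -0.87 to -0.17 for histones, -0.56 to -0.11 for gastric genes and -1.08 to 0.46 for kallikreins. Signs turned for keratins (0.064) and squamous genes (0.15) without the unprefixed control, squamous genes (0.091) and EGR1 (0.97) without the SP-prefixed knockdown-labelled library, and the clock list (-0.084) without the SP-prefixed control. The clock list reached 0.42 without the SP-prefixed knockdown-labelled library. Keratins reached -0.19 and squamous genes -0.52. Without the unprefixed control CEACAM had -0.44. Without the unprefixed knockdown-labelled library CEACAM had -1.15, kallikreins -0.85, squamous genes -0.31 and histones -0.82, and without the SP-prefixed one kallikreins had -0.073 and histones -0.34.

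No paired analysis was possible because the column names carry no replicate number; the group term of the fit is the sole block, and it sets the libraries of each group against each other. With 2 libraries per prefix and 1 residual degree of freedom, the spread behind every p-value rests on few libraries.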

Other observations

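Of 20 measured antigen presentation genes none passed, 4 were lower and none higher at an unadjusted p under 0.05 (4.98% and 5.48% of all genes), and the median was -0.05. The 4 were HLA class II genes, which present antigen to helper T cells, and their chaperone. HLA-DRA had 12.7 and 23.5 CPM in the SP-prefixed knockdown-labelled and control libraries and 21.2 and 42.05 CPM in the unprefixed ones (log2 fold change -0.79 ± 0.16; edgeR, Benjamini-Hochberg adjusted p = 0.0906). CD74, that chaperone, had -0.40 ± 0.14, HLA-DRB1 -0.66 ± 0.18 and HLA-DPA1 -0.78 ± 0.34. Of the class I genes, HLA-B had -0.05 ± 0.13 and B2M -0.04 ± 0.13; class I and class II were not listed or tested apart. HLA genes are polymorphic and share reads.

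Chemokines and cytokines had 9 of 26 members higher and 3 lower at an unadjusted p under 0.05 (5.48% and 4.98% of all genes), and none passed. IL1A, an alarmin, had 0.03 in the knockdown-labelled and 2.10 in the control pair, and CCL20, which attracts CCR6-bearing cells, 0.23 and 2.16. The mucosal chemokine CCL28 (-0.91 ± 0.16) and the growth factor CSF2 (-1.16 ± 0.31) lay lower in both pairs. CXCL1, a neutrophil chemokine, had 0.53 and 0.74 in the knockdown-labelled and control pairs. Among Wnt genes, the feedback inhibitors AXIN2 (-1.07 ± 0.28) and NKD1 (-1.04 ± 0.20) lay lower and the receptors FZD2 (0.76 ± 0.17) and FZD7 (0.49 ± 0.16) higher. None of the 27 members passed, and 4 stood in each direction at an unadjusted p under 0.05 (5.48% of all genes higher, 4.98% lower). All of these genes were chosen after their values were seen.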
